A study of Mus musculus with 4 samples.

Results

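The genes described here are 33 members of the type I interferon response, chosen by name as interferon-stimulated genes, leaving out the interferon-induced GTPases of the IRG and GBP families and the genes that load MHC class I. A member was measured by the probe sets of the Affymetrix array that carry its symbol alone, with the brightest of these standing for the gene. Of the 33 members, 31 had such a probe set, among 18193 genes named on the array, and 30 were bright enough to be tested, among 10235 tested genes. Isg15 lay only on a probe set that carries several symbols and Ifi44 on no probe set named here, so neither has a value. Mx2 was too dim to be tested.

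The RNA came from unsorted thymus cells (total thymocytes) of 2 Atg16l1 hypomorph mice and 2 control mice described as wild type, and each animal had its own array. All animals were 7 weeks old. The series text lists 1 male and 1 female per group and calls the animals independent, but the array labels do not say which is which. The labels name neither the strain nor the way the hypomorphic allele was made.

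Type I interferons are cytokines released when cells sense foreign nucleic acid, and they act through the receptor IFNAR1-IFNAR2 and the kinases JAK1 and TYK2. Signalling passes to STAT2, which acts together with IRF9. Their complex binds a short DNA element, the interferon-stimulated response element (ISRE), and switches on genes whose products sense, bind or degrade viral nucleic acid. In the thymus a low level of interferon signalling is present without infection, and ATG16L1, the protein altered in these mice, belongs to the machinery that attaches LC3 to membranes in autophagy, a process that has been linked to the control of nucleic acid sensing.

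The promoters of 5 members are shown because these genes carry the ISRE letters near their start and because several of them differed between animals in the values given below. Each sequence is the 170 bases before the start given for the promoter, 5′ to 3′ on the strand of the gene, from RefSeq's GRCm38.p6. Over all 32851 promoters, the base after the window was the outermost start of the gene in 60.4%. A start named here need not be the outermost one. Capitals mark the core element, GAAA followed by any 2 bases and a further GAAA, which reads as a pair of TTTC where it lies on the other strand, and overlapping matches are merged. Oas1a is at chr5:120907526-120907695 (minus strand), Oas3 at chr5:120777660-120777829 (minus strand), Ifit1 at chr19:34640719-34640888 (plus strand), Ifit3 at chr19:34583359-34583528 (plus strand) and Rsad2 at chr12:26456453-26456622 (minus strand).
Oas1a: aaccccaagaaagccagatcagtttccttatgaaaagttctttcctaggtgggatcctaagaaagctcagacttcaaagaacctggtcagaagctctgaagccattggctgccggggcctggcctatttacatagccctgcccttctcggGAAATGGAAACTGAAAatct
Oas3: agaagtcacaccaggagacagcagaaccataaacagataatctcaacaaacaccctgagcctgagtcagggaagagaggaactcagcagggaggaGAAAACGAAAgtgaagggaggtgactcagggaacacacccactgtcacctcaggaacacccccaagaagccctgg
Ifit1: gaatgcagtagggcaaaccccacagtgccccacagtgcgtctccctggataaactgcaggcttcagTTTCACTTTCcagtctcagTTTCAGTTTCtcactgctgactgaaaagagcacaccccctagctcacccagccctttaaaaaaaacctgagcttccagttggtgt
Ifit3: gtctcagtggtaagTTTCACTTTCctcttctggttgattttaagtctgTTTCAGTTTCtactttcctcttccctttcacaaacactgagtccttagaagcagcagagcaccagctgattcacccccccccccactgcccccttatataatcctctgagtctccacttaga
Rsad2: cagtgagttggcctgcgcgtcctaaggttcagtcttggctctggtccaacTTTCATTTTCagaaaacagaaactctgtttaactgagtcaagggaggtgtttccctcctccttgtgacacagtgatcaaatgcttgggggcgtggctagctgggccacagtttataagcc

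The core lay 75 to 66 bases before the start in Oas3 and 120 to 111 bases before it in Rsad2 (positions -75 to -66 and -120 to -111). Oas1a, Ifit1 and Ifit3 each held 2 matches, which overlap in Oas1a. A promoter was found by symbol or gene ID for 24 of the 33 members, and 8 of these 24 (33.3%) held the core within 250 bases of the start, namely Stat2, Oas1a, Oas3, Ifit1, Ifit3, Isg15, Rsad2 and Bst2. The share over all 32851 promoters of that length was 2.98%. Counted by gene, as the members are, it was 3.46% of 27025 genes. The longer form, the core followed by CT, was present in Oas1a, Ifit1, Ifit3 and Bst2, against 0.222% of all promoters and 0.255% of genes. The STAT element GAS, searched as TTCNNNGAA, was in 7 of the 24 members, in 7.02% of all promoters and in 8.13% of genes. In Bst2 the GAS match (-136 to -128) overlapped the first ISRE core (-130 to -121), and in Oas1a it lay further upstream (-98 to -90). These matches describe letters in a window, not bound sites.

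As a check of the labels, Atg16l1 itself stood at signals of 108 and 70.8 in hypomorph replicates 1 and 2 and at 184 and 241 in the controls, a log2 change of -1.57 ± 0.18 (SE, n = 2 per group) with an adjusted p of 0.0142 in limma. Median signals of the arrays ran from 23.5 to 38.4, so arrays were brought to a common median of log2(signal + 2.29), where 2.29 is the 10th percentile of all signals. Tested genes still had a median log2 change of 0.21 after centring, against 0.023 with quantile normalization. Changes of members are therefore given relative to that median where so stated, and on this log scale they understate the change of dim genes. All p-values and adjusted p-values from limma test the centred log2 change against 0. They do not test the change relative to that median, also where they are printed beside it. Of 9 thymocyte markers with a probe set, all were bright enough to be tested, with Cd3e signals of 997 to 2066 and Rag1 signals of 5620 to 8417, while 0 of the tested markers of B cells, macrophages and dendritic cells was called in limma. Their median changes relative to tested genes were -0.61, -0.52 and -0.38, with 6 of 7, 7 of 7 and 6 of 7 markers below the median of tested genes. In total thymocytes fewer cells of a type and less RNA per cell cannot be told apart. The number of arrays, 2 per group, limits every value below, and an exact permutation test of 2 against 2 cannot give a p below 0.333.

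The comparison of hypomorph with control thymocytes asks whether reduced Atg16l1 function went with a change in interferon-stimulated transcripts. No member passed the threshold. Of 30 tested members 0 had an adjusted p under 0.05 in limma, where 14 of 22519 tested probe sets (0.0622%) and 0.0391% of tested genes did. An unadjusted p under 0.05 was found for 2 members and 19.1% of tested genes: Oas1a was lower, as were 0.889% of tested genes, and Oasl2 higher, as were 18.2%. The smallest adjusted p among members was 0.279, for Oas1a. The median log2 change of the 30 members was 0.07, which is -0.14 relative to the tested genes. Members spread from -0.88 for Oas1a to 0.70 for Oasl2, with quartiles of -0.29 and -0.045, against quartiles of -0.14 and 0.12 over all tested genes. Below the median of tested genes, where 50% of genes lie by construction, lay 24 members, and 6 lay above it: Irf1, Eif2ak2, Oas3, Oasl2, Ifit2 and Samhd1. More than 0.5 below that median lay 4 members (Irf7, Oas1a, Mx1 and Ifi27l2a), where 4.68% of tested genes did, and more than 0.5 above it 2 (Oas3 and Oasl2), where 1.78% did. Oas3 and Oasl2 were bright enough to be tested only through the hypomorph arrays, so their upward changes are partly a product of the filter. The members' median depended on single arrays. It was 0.033 without control replicate 1, -0.025 without hypomorph replicate 2, -0.31 without hypomorph replicate 1 and -0.35 without control replicate 2.

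The intervals show what size of change these arrays leave room for. For 26 of 30 members the 95% confidence interval of the log2 change lay within a 2-fold change in either direction, which was so for 87.1% of tested genes. The exceptions were Oas1a (-1.24 to -0.10), Mx1 (-1.05 to 0.16), Oas3 (-0.40 to 1.85) and Oasl2 (0.11 to 1.71). Relative to the median of tested genes, the scale of the plot of member changes, 24 of 30 intervals lay within that range, as did 88.7% of those of tested genes, and Irf7 and Dhx58 joined the exceptions. The median SE was 0.21 for members and 0.18 for tested genes.

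**Figure D1:**
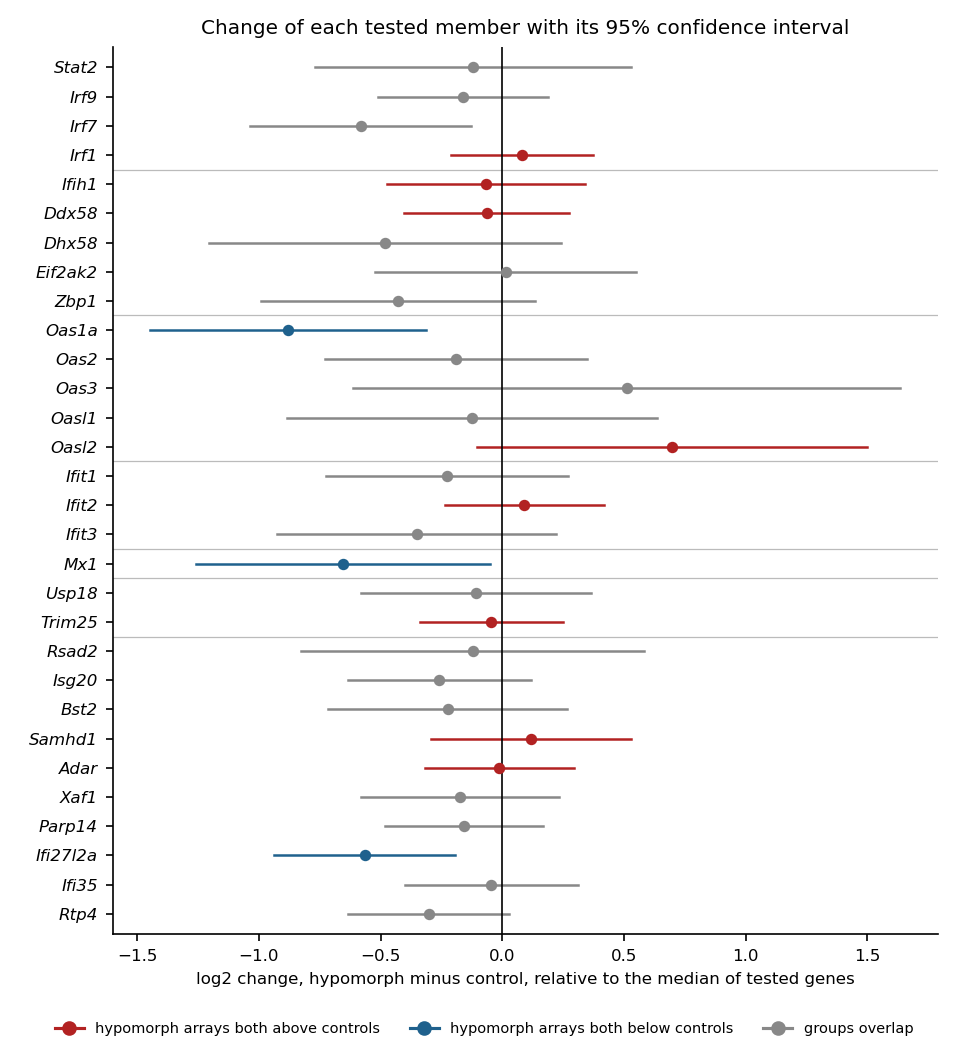
Log2 change (x axis, hypomorph minus control, relative to the median of tested genes) of the 30 tested members in order of role, with points for the estimate and bars for its 95% confidence interval from limma (n = 2 per group). All bars cross 0 but those of Irf7, Oas1a, Mx1 and Ifi27l2a, which take the median of tested genes as fixed and are not adjusted, and Oas1a at -0.88 and Oasl2 at 0.70 stand at the ends; red and blue mark members whose 2 hypomorph arrays lay both above or both below the control arrays.

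Separation of the groups was counted next. After centring, the hypomorph values lay all above the control values for 8 members (Irf1, Ifih1, Ddx58, Oasl2, Ifit2, Trim25, Samhd1 and Adar) and all below for 3 (Oas1a, Mx1 and Ifi27l2a), together 36.7% of 30, where 56.6% of tested genes separated, 51.7% upward and 4.9% downward. The split depended on scaling. With quantile normalization 8 members separated, 1 upward and 7 downward, against 36.7% of tested genes in either direction. Shares of tested genes by direction were not counted in that setting, so the split of the members has nothing to be set against there. The difference between the shares of members and of tested genes was not tested.

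Among the transcription factors, Stat2 and Irf9 encode proteins that act together at the ISRE, Irf7 drives the induction of interferon genes and is itself induced by interferon, and Irf1 acts downstream of both interferon types. Irf7 had signals of 183 and 158 in hypomorphs and 197 and 156 in controls. These groups overlapped also after centring, where the mean log2 signal was 7.26 ± 0.18 (SD, n = 2) in hypomorphs and 7.64 ± 0.38 (SD, n = 2) in controls. The centred change was -0.37, with an adjusted p of 0.376 in limma, and the change relative to the tested genes was -0.58. Irf1 had 648 and 477 against 345 and 378, a relative change of 0.081 (adjusted p 0.311). Irf9 stood at -0.16 and Stat2 at -0.12. Stat2 differed most within groups: its signals were 148 and 70.1 in hypomorphs and 53.4 and 107 in controls.

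The sensors ranged from -0.48 to 0.014 relative to the tested genes. Ifih1 and Ddx58, which encode the RNA helicases MDA5 and RIG-I, stood at -0.066 and -0.064, and Eif2ak2, the gene of the RNA-activated kinase PKR, at 0.014. Eif2ak2 had signals of 128 and 66.3 in hypomorphs and 59.4 and 65.1 in controls, with hypomorph replicate 1 above the other 3 arrays and the groups overlapping after centring. Their regulator Dhx58, encoding LGP2, was at -0.48 with signals of 54.3 and 24.9 in hypomorphs and 31.8 and 39.5 in controls. Zbp1, whose product binds left-handed nucleic acid and can start necroptosis, had 179 and 79.5 against 120 and 102, at -0.43. In both genes the hypomorph arrays spanned more than the controls did, and the groups overlapped. Adjusted p-values of the 5 sensors were 0.629 to 0.697 in limma.

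Among tested members, the OAS family held the largest relative change in each direction. Testing needed a mean log2 signal of 4.87 over all 4 arrays. Oasl2 and Oas3, the upward ones, reached it only through the hypomorphs, with means of 5.574 and 5.537 there and 4.666 and 4.815 in controls. The filter thus favoured upward changes in such dim genes. OAS enzymes make 2′-5′ oligoadenylates that activate the ribonuclease RNase L, while the OASL proteins carry ubiquitin-like ends. Oas1a had signals of 196 and 76.3 in hypomorphs and 149 and 163 in controls. The low group mean thus came from hypomorph replicate 2, and on uncentred signals the groups overlapped. After centring, the means were 6.80 ± 0.62 and 7.47 ± 0.055 (SD, n = 2), a log2 change of -0.67 ± 0.26 (SE), or 1.59-fold lower, with an adjusted p of 0.279 in limma. Without hypomorph replicate 1 its relative change was -1.36 with an adjusted p of 0.0132, and without hypomorph replicate 2 it was -0.40 with an adjusted p of 0.73. These 2 adjusted p-values were the lowest and the highest of all its alternatives. Both fits leave 1 hypomorph array, which is assumed to vary as the controls do, so they do not measure the spread between hypomorphs.

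Oasl2 had the highest relative change of the members, with signals of 70.7 and 36.8 in hypomorphs and 24.9 and 16.6 in controls. Both hypomorph arrays lay above both controls. The log2 change was 0.91 ± 0.36 (SE), or 1.88-fold higher, with an adjusted p of 0.284 in limma, and the change relative to tested genes was 0.70. Leaving out single arrays moved it between 0.28 (without control replicate 2) and 1.11 (without control replicate 1). Oas3 had 68.1 and 36.2 in hypomorphs and 42.3 and 11.9 in controls, so that its change of 0.51 rested on control replicate 2; without that array it was -0.47. Oas2, at -0.19, and Oasl1, at -0.12, had overlapping groups. In the RefSeq gene order Oas2 and Oas3 are neighbours, Oas1a lies 6 protein-coding genes from Oas3, and Oasl1 and Oasl2 are neighbours on the same chromosome, so that relative changes of opposite sign stood beside each other.

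The IFIT proteins bind RNA ends and block translation, and their genes form a cluster in which Ifit2 and Ifit3 are neighbours. Ifit1 had signals of 162 and 98.3 in hypomorphs and 114 and 90.5 in controls. Ifit3 had 161 and 81.2 against 117 and 86.2. In both genes replicate 1 was the higher array of each group and the groups overlapped, with relative changes of -0.23 and -0.35. Ifit2 had 408 and 313 against 228 and 232, at 0.091, and did not share that order. Adjusted p-values of the 3 genes were 0.333 to 0.976 in limma.

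The MX genes encode dynamin-like GTPases that trap viral particles. Mx1 had signals of 56.2 and 38.7 in hypomorphs and 52.8 and 48.7 in controls, a relative change of -0.66. The centred log2 change of Mx1 was -0.44, with an adjusted p of 0.416 in limma. Its groups separated after centring but not before it. Mx2 was dim on all 4 arrays, at 4.47 to 5.52, and has no test.

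In the ISG15 system, a ubiquitin-like modifier is attached to proteins and removed again by USP18, which also dampens IFNAR signalling. Usp18 had signals of 259 and 122 in hypomorphs and 122 and 141 in controls, at -0.11. Hypomorph replicate 1 stood above the other 3 arrays, which were close to each other. Trim25, a ubiquitin ligase that modifies RIG-I, had 975 and 625 against 513 and 598, at -0.045, and its adjusted p was 0.527 in limma.

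Among the 10 tested members with other antiviral roles, Ifi27l2a, a small interferon-induced membrane protein, had the largest relative change. It had signals of 951 and 488 in hypomorphs and 677 and 711 in controls, a log2 change of -0.35 ± 0.17 (SE) and a relative change of -0.56, with an adjusted p of 0.323 in limma. As for Oas1a, the lowest value was that of hypomorph replicate 2, and without that array the relative change was -0.27. Bst2, which encodes tetherin, a tether of budding virus, had 242 and 111 against 129 and 135, at -0.22, again with the extremes on the hypomorph arrays. Ifi35 had 1026 and 857 against 719 and 616, at -0.045.

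The remaining effectors had changes of -0.30 to 0.12 relative to the tested genes. Rsad2, the gene of viperin, which makes a chain-terminating nucleotide, had 115 and 51.6 in hypomorphs and 70.4 and 46.3 in controls, at -0.12. Samhd1, a dNTP hydrolase, had 230 and 223 against 140 and 145, at 0.12. Adar, which edits double-stranded RNA, had 491 and 356 against 280 and 300, at -0.013. Rtp4 was at -0.30, the nuclease gene Isg20 at -0.26, Xaf1 at -0.17 and the ADP-ribosyltransferase gene Parp14 at -0.16. Adjusted p-values of the 10 genes were 0.323 to 0.982 in limma.

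**Figure D2:**
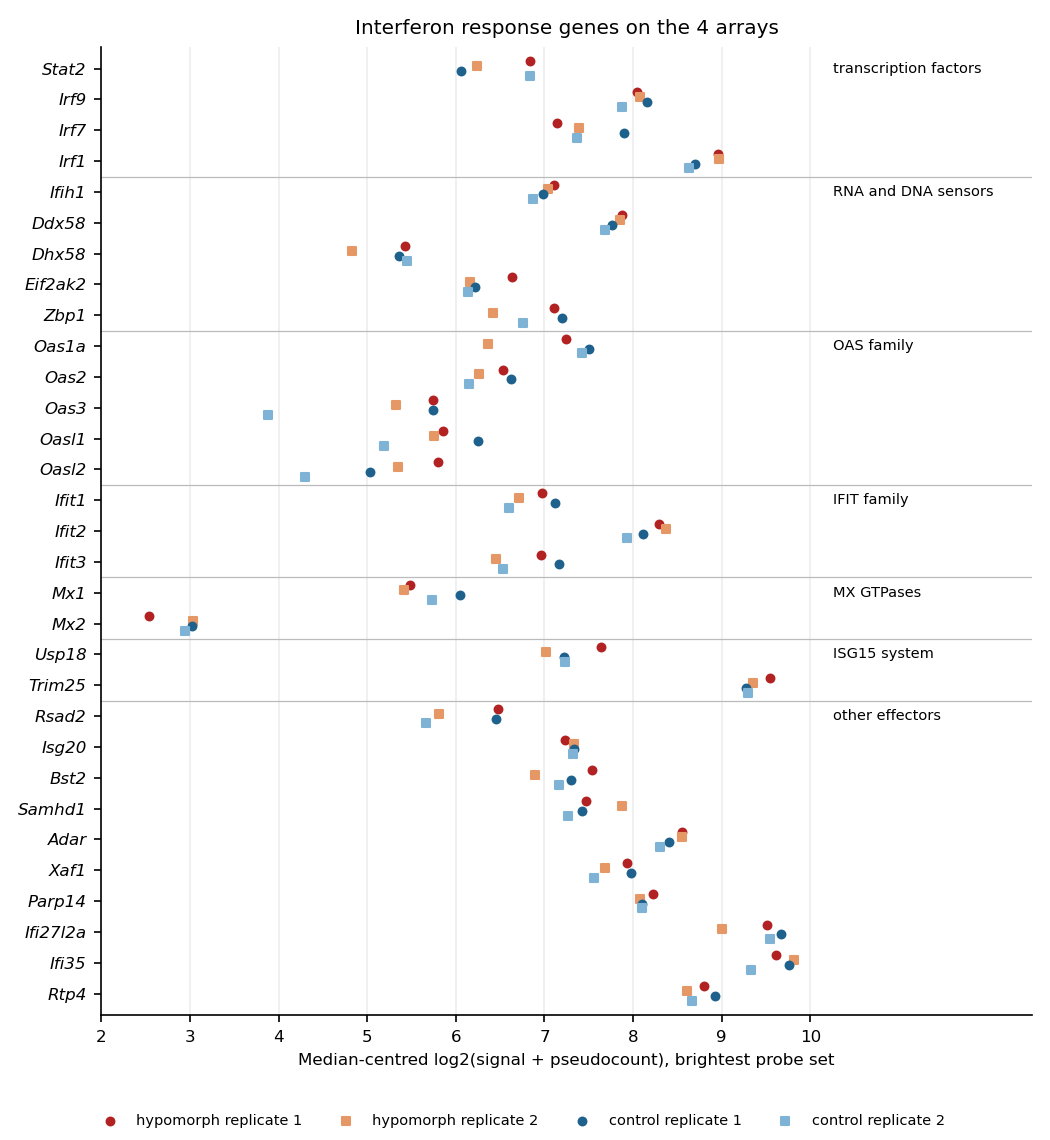
Median-centred log2(signal + 2.29) (x axis) of the brightest probe set of the 31 measured members, in order of role, with circles for replicate 1 and squares for replicate 2 of the hypomorph (red, orange) and control (dark and light blue) groups. Colours are mixed in most rows; the hypomorph pair lies apart from the control pair in Oasl2 and Irf1, while Oas1a and Ifi27l2a have a low value on hypomorph replicate 2 and Oas3 on control replicate 2.

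Members also differed between animals of the same group. For each array, the members' median deviation from their own mean over the 4 arrays was set against that of all tested genes. It was 0.26 above the tested genes on control replicate 1 and 0.047 above on hypomorph replicate 1, and it lay below them on control replicate 2 (-0.089) and hypomorph replicate 2 (-0.23). The largest departures were thus on control replicate 1 and hypomorph replicate 2. With quantile normalization the same 4 values were 0.26, 0.04, -0.086 and -0.21. The larger of the 2 differences between replicates exceeded the relative change between groups in 22 of 30 members, as it did in 78.2% of tested genes.

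**Figure D3:**
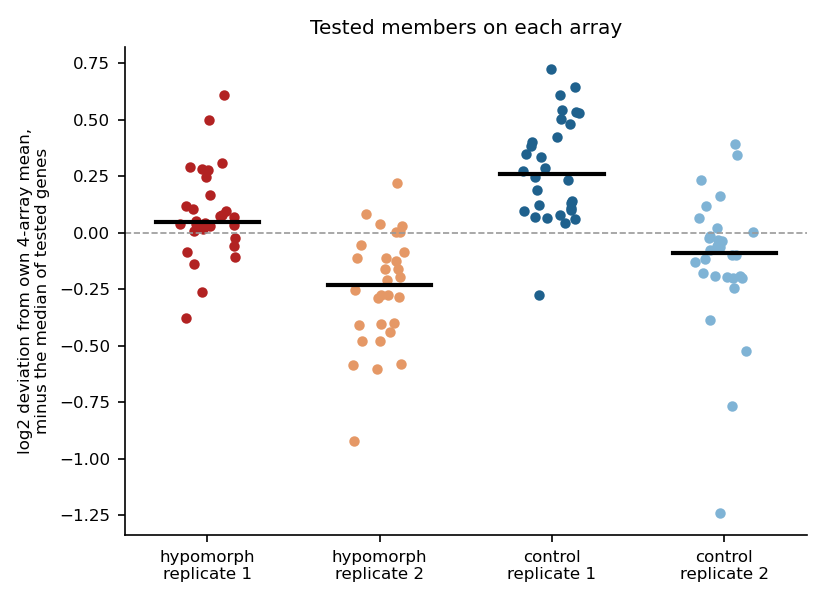
Deviation of each of the 30 tested members from its own mean over the 4 arrays, less the median deviation of tested genes on that array (y axis, log2), by array, with a bar at the median of the members. The bars stand at 0.26 on control replicate 1 and at -0.23 on hypomorph replicate 2, and the lowest point on control replicate 2 is Oas3.

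Counted gene by gene, 23 of 30 members were higher on hypomorph replicate 1 than on replicate 2, where 36.4% of tested genes were. In the controls 26 of 30 were higher on replicate 1 than on replicate 2, where 33.2% of tested genes were. The median differences were 0.21 and 0.17 on the log2 scale for members and -0.083 and -0.10 for tested genes. Rsad2 (0.66 in hypomorphs and 0.78 in controls), Ifit3 (0.51 and 0.63), Zbp1 (0.69 and 0.44) and Oasl2 (0.45 and 0.72) differed in both groups. Oas1a differed in the hypomorphs (0.88) and little in the controls (0.078), and Oas3 and Oasl1 mainly in the controls (1.86 and 1.06). No transcription factor was higher on replicate 1 in both groups. Irf7 was lower on hypomorph replicate 1 by 0.25 (a difference of -0.25) and higher on control replicate 1 by 0.53. Irf9 was at -0.03 and 0.29, Irf1 at -0.015 and 0.069, and Stat2 at 0.60 and -0.77. Replicate numbers do not tie an animal of one group to one of the other, so both differences are separate descriptions.

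**Figure D4:**
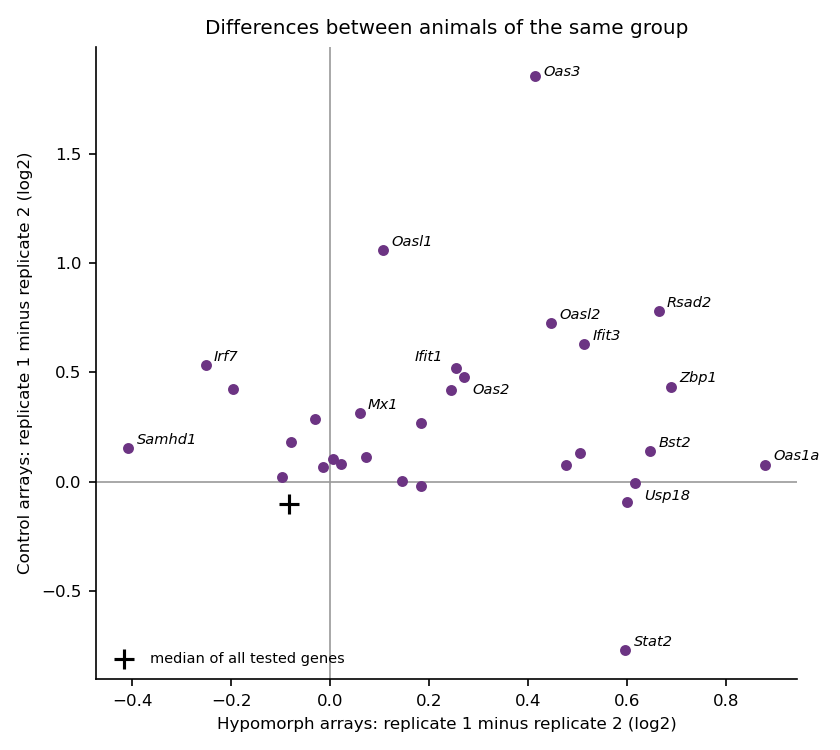
Difference between the arrays of a group (replicate 1 minus replicate 2, log2 scale) in hypomorphs (x axis) and controls (y axis), 1 point per tested member, with a cross at the median of all tested genes (-0.083 and -0.10). Most members lie to the right of and above the cross, Oas3 highest at 1.86 and Oas1a furthest right at 0.88, while Stat2 is at 0.60 and -0.77.

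The replicate differences were then set out by promoter, a split made after the values were seen. The ISRE core was in the promoter window of 7 tested members (Stat2, Oas1a, Oas3, Ifit1, Ifit3, Rsad2 and Bst2). In these the median difference of replicate 1 minus replicate 2 was 0.60 in hypomorphs and 0.52 in controls. Not all 7 shared it: in controls Stat2 was at -0.77, Oas1a at 0.078 and Bst2 at 0.14. In the 15 tested members whose promoter window lacked the core the medians were 0.006 and 0.15. Another 8 tested members had no promoter in the table and stood at 0.39 and 0.20. Higher on replicate 1 in both groups were 6 of the 7, 7 of the 15 and 6 of the 8. The relative change between groups had a median of -0.22 in the first set, -0.045 in the second and -0.37 in the members without a promoter. No test was made of these differences between sets.

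Markers of other cells also differed between animals. Of 7 tested macrophage markers, 7 were higher on hypomorph replicate 1 than on replicate 2 and 5 were higher on control replicate 1 than on replicate 2. Their median deviation from the tested genes was -0.74 on hypomorph replicate 2 and 0.42 on control replicate 1. For the 7 tested dendritic cell markers it was 0.46 and 0.14 on control replicates 1 and 2, and -0.22 and -0.18 on hypomorph replicates 1 and 2. Of these 7, 2 were higher on hypomorph replicate 1 than on replicate 2 and 5 on control replicate 1 than on replicate 2. The 7 tested B cell markers stood at -0.24 on both hypomorph arrays and at 0.20 and 0.27 on control replicates 1 and 2. Over the 10 macrophage markers with a probe set the summed signal, scaled to the common median, was 630 and 392 in hypomorphs and 696 and 600 in controls. Cd163, Timd4 and Mertk were too dim to be tested, none was listed at 0, and C1qb had deposited signals of 230 and 76.6 in hypomorphs and 147 and 117 in controls. The 10 markers of plasmacytoid dendritic cells, the main producers of type I interferon, had scaled sums of 3570 and 2074 in hypomorphs and 3457 and 3494 in controls. The low sum came from Ly6d, whose scaled signals were 2612 and 1025 in hypomorphs and 2499 and 2514 in controls. The other 9 markers summed to 958 and 1049 in hypomorphs and 958 and 980.2 in controls, with Ptprs the brightest of them. Ptprs had deposited signals of 493 and 510 in hypomorphs and 284 and 354 in controls. It was the only one of the 10 whose change between groups lay above the median of tested genes, and 9 lay below. The median change of the 10 relative to tested genes was -0.384, and 0 were called in limma. Groups separated upward for 1 and downward for 3, where 51.7% and 4.9% of tested genes did. Marker by marker, 6 of the 10 were lowest on hypomorph replicate 2. Of the 10, 7 were higher on hypomorph replicate 1 than on replicate 2 and 4 on control replicate 1 than on replicate 2. The median deviation of the 10 from the tested genes was -0.38 on hypomorph replicate 2 and 0.255 on control replicate 1. Siglech had deposited signals between 27.6 and 40.6 on all arrays. Granulocyte markers ran otherwise, at scaled sums of 2206 and 3682 in hypomorphs and 659 and 5781 in controls, lowest on the array where the members were highest. The part of these cells in the members' values was not tested.

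Probe sets of the same member agreed in part. Of the 54 probe sets that carry a member symbol alone, 48 were tested and 0 were called in limma, with a smallest adjusted p of 0.197. Among 10 members with several tested probe sets, all changes of a gene lay on the same side of the median of tested genes in 6 (Adar, Ddx58, Ifi35, Parp14, Stat2 and Zbp1). Both Zbp1 probe sets, at -0.43 and -0.40, and all 3 of Ifi35, at -0.087 to -0.036, gave nearly the same value. The probe sets of Eif2ak2 ran from -0.33 to 0.014 and those of Trim25 from -0.045 to 0.043.

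Samhd1 and Rsad2 had the widest spans. Of 5 Samhd1 probe sets, the brightest and the next were at 0.12 and 0.097 and the dimmest at -0.072. Of the other two, the first was at 0.78, with signals of 188 and 122 in hypomorphs and 68.5 and 51.7 in controls (adjusted p 0.197 in limma), and the second at -0.87, with 107 and 71.9 against 82.5 and 148 (adjusted p 0.265). The first of these has a name ending in x_at, which by Affymetrix's naming marks probes that may also match other transcripts. For Rsad2, the second-brightest probe set was at 0.80 with signals of 73.8 and 31.3 in hypomorphs and 35.9 and 8.22 in controls, so that this value turned on control replicate 2, while the brightest stood at -0.12 and the dimmest at -0.23.

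**Figure D5:**
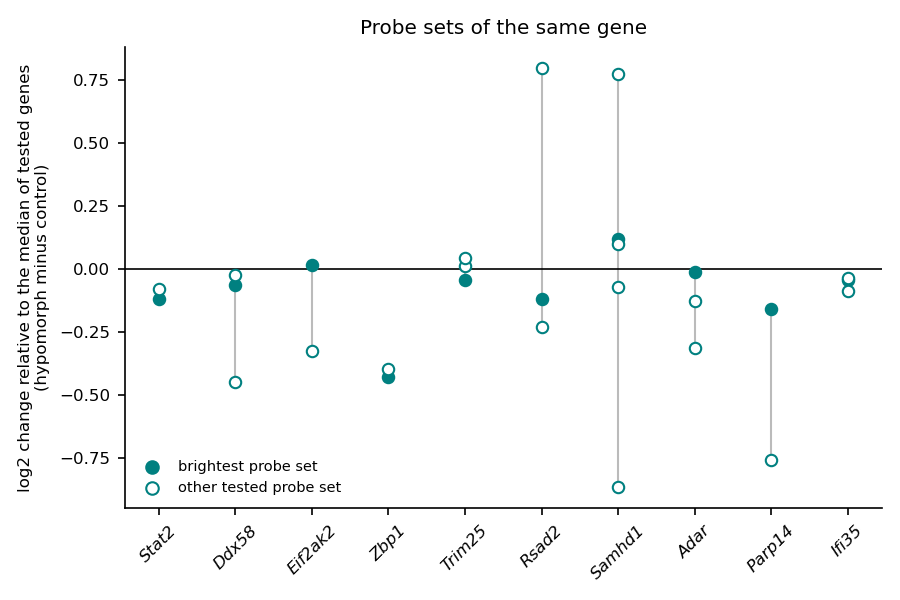
Log2 change relative to the median of tested genes (y axis, hypomorph minus control) of every tested probe set of the 10 members with several, with filled points for the brightest. Samhd1 runs from -0.87 to 0.78 and Rsad2 from -0.23 to 0.80, while the probe sets of Zbp1, Ifi35, Stat2 and Trim25 lie close together.

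Upstream of the members, interferon genes themselves were at the lower end of what the arrays measured. Of 9 interferon ligand genes with a probe set, 8 were too dim to be tested, among them Ifnb1 with signals of 12.6 to 19.1, and Ifnz, tested, was at -0.35 (adjusted p 0.811 in limma). The receptor genes Ifnar1 and Ifnar2 were at 0.018 and -0.055 and the kinase genes Jak1 and Tyk2 at -0.047 and -0.13, with Stat3 at -0.14, so that 0 of 5 tested receptor and kinase genes was called and their median was -0.055. In the induction arm, which runs from nucleic acid sensors through adaptors to IRF3, 0 of 15 tested genes was called, with 12 of 15 below the median of tested genes. Cgas, the cytosolic DNA sensor, was the highest at 0.57 by the brightest of its 2 tested probe sets. Its signals were 103 and 79.8 in hypomorphs and 37.2 and 44.5 in controls, and its adjusted p was 0.243 in limma. Of the 15 genes 4 separated upward, Cgas among them, and 2 downward (Ticam1 and Sting1). Over all tested genes 51.7% separated upward and 4.9% downward. Ddx41 was at 0.29 (adjusted p 0.284), Traf6 at 0.11 and Ticam1, which encodes the adaptor TRIF, at -0.58, with Sting1, the adaptor downstream of Cgas, at -0.40 and Irf3 at -0.030.

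Among 14 tested negative regulators 0 was called and 10 lay below the median of tested genes. Atg12 and Atg5, whose products form the conjugate that ATG16L1 binds and that has been reported to restrain RIG-I signalling, were at 0.35 and -0.018. Atg12 had signals of 513 and 373 in hypomorphs and 188 and 294 in controls (adjusted p 0.242 in limma). Socs3, an inhibitor of JAK kinases, was at -0.57 (adjusted p 0.315), and Cyld and Tnfaip3, which remove ubiquitin from signalling proteins, were at 0.11 each. Ptpn11, encoding the phosphatase SHP2, was at 0.019.

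Another 44 tested interferon-stimulated genes that are no members were compared in the same way. None was called in limma, with 13 above and 31 below the median of tested genes and a median of -0.077. The smallest adjusted p-values were those of Lgals9, encoding galectin-9, at 0.16 (adjusted p 0.265), Trim21 at 0.091 (0.306), Epsti1 at 0.23 (0.319), Cmpk2, encoding a mitochondrial nucleotide kinase, at 0.40 (0.321) and Nt5c3 at 0.080 (0.342). Between animals, 22 of the 44 were higher on hypomorph replicate 1 than on replicate 2 and 21 on control replicate 1 than on replicate 2. Their median deviations from the tested genes were -0.015 and -0.065 on hypomorph replicates 1 and 2 and 0.084 and -0.04 on control replicates 1 and 2, where those of the members were 0.047, -0.23, 0.26 and -0.089.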

How the data were processed

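Per the labels' protocols, thymocyte RNA was prepared with an RNeasy kit and labelled by the Affymetrix protocol. Per the submitters' processing notes GCOS made the deposited values, which are the intensity of each probe set on a linear scale. No source used here gives the scaling. Of 45101 probe sets, 64 Affymetrix controls were left out. Signals were taken to log2(signal + 2.29) and arrays were brought to a common median. The 22519 probe sets whose mean log2 signal reached the median of such means (4.87) were fitted with limma 3.58.1 in R 4.3.3 (lmFit, eBayes with a variance trend, two-sided, no covariates), with Benjamini-Hochberg adjustment over all of them and a threshold of 0.05. Gene names came from the platform annotation, by probe sets with 1 symbol (34945; 932 had several and 9160 none). Promoters came from RefSeq, matched by symbol or gene ID. The fit was tested on simulated data.

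The members and lists were chosen with earlier results of these data known. By rule, values on every array were given for members past the threshold, for tested members whose groups did not overlap with a change over 0.5 relative to the median of tested genes, for the 2 brightest members and for those whose tested probe sets differed in the sign of that change. From other lists the rule took genes past the threshold or else up to 5 with the smallest unadjusted p. Array values of further members, and Ifnb1, Sting1, Atg5 and the markers, were given after their values were seen. Alternatives were quantile and cyclic loess normalization, other or no centring, other pseudocounts (none, 8.44) and filters, no variance trend, a replicate block, the mean of all probe sets and leaving out each array.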

Additional observations from a re-analysis of the deposited data

How the results depend on the processing

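Of 437 values of tested members under an alternative, 402 kept their side of the median of tested genes and of the threshold, 1 passed the threshold (Oas1a without hypomorph replicate 1, a fit with a single hypomorph array, assumed to vary as the controls do) and 34 changed side, 27 of them on leaving out an array. The 14 called probe sets became 4 with quantile normalization, 5 with cyclic loess, 7 with centring on the tested probe sets, 84 without centring, 4 without the filter and 0 without the variance trend. The labels tie no animals together, and the Pearson correlation of the replicate differences between the groups was 0.082 over 22519 probe sets, so the replicate numbers were not taken as pairs. With the replicate block, 9 were called and no member was (smallest adjusted p 0.243). Leaving out an array gave 8 to 340 called probe sets, 0 to 1 called members, 19 to 22 separated members (73.4 to 83.3% of tested genes then separate, since 1 group has a single array) and a member median of -0.35 to 0.033. Members higher on control replicate 1 numbered 14 of 30 without centring, where 13% of tested genes were, and 15 of the 17 members tested with the filter raised to the 75th percentile. Of those 17, 10 were higher on hypomorph replicate 1. These counts of replicate differences were chosen after seeing the data. Changes of side without leaving out an array were Eif2ak2 at -0.003 (higher pseudocount) and -0.14 (mean of probe sets), Trim25 at 0.017 (no filter) and 0.031 (mean), Adar at 0.049 and Ifi35 at 0.018 (no filter), and Rsad2 at 0.18 (mean). The cause was not tested.

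Leaving out an array, the relative changes that changed side ran from -0.12 to 0.093 for Adar, -0.59 to 0.14 for Bst2, -0.16 to 0.031 for Ddx58, -0.27 to 0.29 for Eif2ak2, -0.31 to 0.22 for Ifi35, -0.18 to 0.044 for Ifih1, -0.54 to 0.087 for Ifit1, -0.052 to 0.23 for Ifit2, -0.72 to 0.017 for Ifit3, -0.007 to 0.17 for Irf1, -0.36 to 0.036 for Irf9, -0.48 to 0.10 for Oas2, -0.47 to 1.49 for Oas3, -0.71 to 0.46 for Oasl1, -0.56 to 0.32 for Rsad2, -0.047 to 0.28 for Samhd1, -0.46 to 0.22 for Stat2, -0.18 to 0.086 for Trim25, -0.46 to 0.24 for Usp18 and -0.44 to 0.09 for Xaf1. No detection calls were used here, so how far the dimmer members, such as Oas3, Oasl2, Dhx58 and Mx1, stood above background was not assessed.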
